A study of Homo sapiens with 12 samples.

Results

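F-box proteins are the interchangeable adaptors through which SCF ubiquitin ligases choose the proteins they mark, and the mRNAs of 51 F-box genes were followed here through a block of transcription. The members were the rows whose symbol begins with FBXO, FBXL or FBXW and a number, averaging 1 FPKM or more in the 12 libraries. FPKM counts fragments per kilobase of transcript, scaled to the size of the library. The rule names the iron-sensing FBXL5 as an exception, which is not analysed here. Of 66 such rows among 23615 gene rows, 51 passed and 15 did not. The members comprise 28 FBXO, 14 FBXL and 7 FBXW genes and 2 antisense RNAs, FBXL19-AS1 and FBXO22-AS1. Just inside the threshold were FBXL8 at 1.02 FPKM and FBXO48 at 1.35 FPKM, and just outside it FBXO2 at 0.846 FPKM and FBXO32 at 0.675 FPKM.

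All libraries came from poly(A) RNA of HEK293T cells, a line of human embryonic kidney origin that expresses the SV40 large T antigen. Cells received 2 μM CP25, which the labels call a macrocyclic inhibitor and the series title ties to the decapping enzyme Dcp2, or an equal volume of vehicle (peptide storage buffer). After 18 h of exposure, 5 μg/mL of the transcription blocker actinomycin D was given for 2 h or 0 h before RNA was isolated. Crossing CP25 or vehicle with 2 h or 0 h gives 4 groups of 3 libraries. Whether the libraries of a group came from separate cultures is not stated, and a p-value then reflects library-to-library spread that could be technical. The study asks whether the inhibitor changes how long mRNAs persist once transcription has stopped.

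An F-box protein binds the linker SKP1 through its F-box domain and a substrate through the rest of the molecule. SKP1 docks on the scaffold CUL1, whose other end carries the RING protein RBX1 and a ubiquitin-loaded E2 enzyme. FBXW members read their substrates with WD40 repeats, FBXL members with leucine-rich repeats, and FBXO members with other or no recognised domains. Many substrates are short-lived regulators of the cell cycle and of signalling. Decapping by Dcp2 exposes the 5′ end of an mRNA to exonucleases, and it is one of the main routes of mRNA turnover in the cytoplasm.

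Depth, estimated from the FPKM step worth 1 fragment, ranged over 22.2 to 29.6 × 10⁶ fragments in libraries at 2 h and 13.3 to 22.3 × 10⁶ at 0 h. On a transcript of 2 kb, 1 FPKM then stands for 26.5 to 59.2 fragments. Within groups, log2 values of libraries correlated across all genes at Pearson 0.971 to 0.989. Of 7 markers of the line, KRT18, VIM, NEFL and CDH2 were above 20 FPKM at 0 h, while KRT8, INA and PAX2 were at 1 to 3 FPKM, with PAX2 under 1 FPKM at 2 h. Of 12 markers of blood, endothelial, fibroblast and keratinised cells only COL1A1 (3.45 FPKM at 0 h) passed 1 FPKM, and CD3E and KRT5 were listed at 0.

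Before the block, the F-box mRNAs spanned a wide range of levels, with a median of 9.61 FPKM over the 6 libraries at 0 h, against 12.9 FPKM for all 12183 genes at 1 FPKM or more. FPKM is per length, so levels can be set side by side between genes. FBXO7, a mitophagy factor whose mutations cause a juvenile form of parkinsonism, was the highest at 75.9 FPKM. FBXO5, also called EMI1, an inhibitor of the anaphase-promoting complex, was next at 52.98 FPKM. The antisense RNA FBXO22-AS1 stood at 43.1 FPKM, above its namesake FBXO22 at 18.7 FPKM. Since strand-specific counting is not stated, reads of overlapping sense and antisense transcripts cannot be told apart. FBXW11, which recognises phosphorylated IκB and β-catenin, had 33.01 FPKM. At the low end were FBXL8 at 1.299, FBXO48 at 1.59 and FBXL21 at 1.89 FPKM, the last annotated as a transcribed pseudogene in GENCODE 29. Over 12 libraries, 36 members averaged 5 FPKM or more and 11 averaged 20 FPKM or more.

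**Figure D1:**
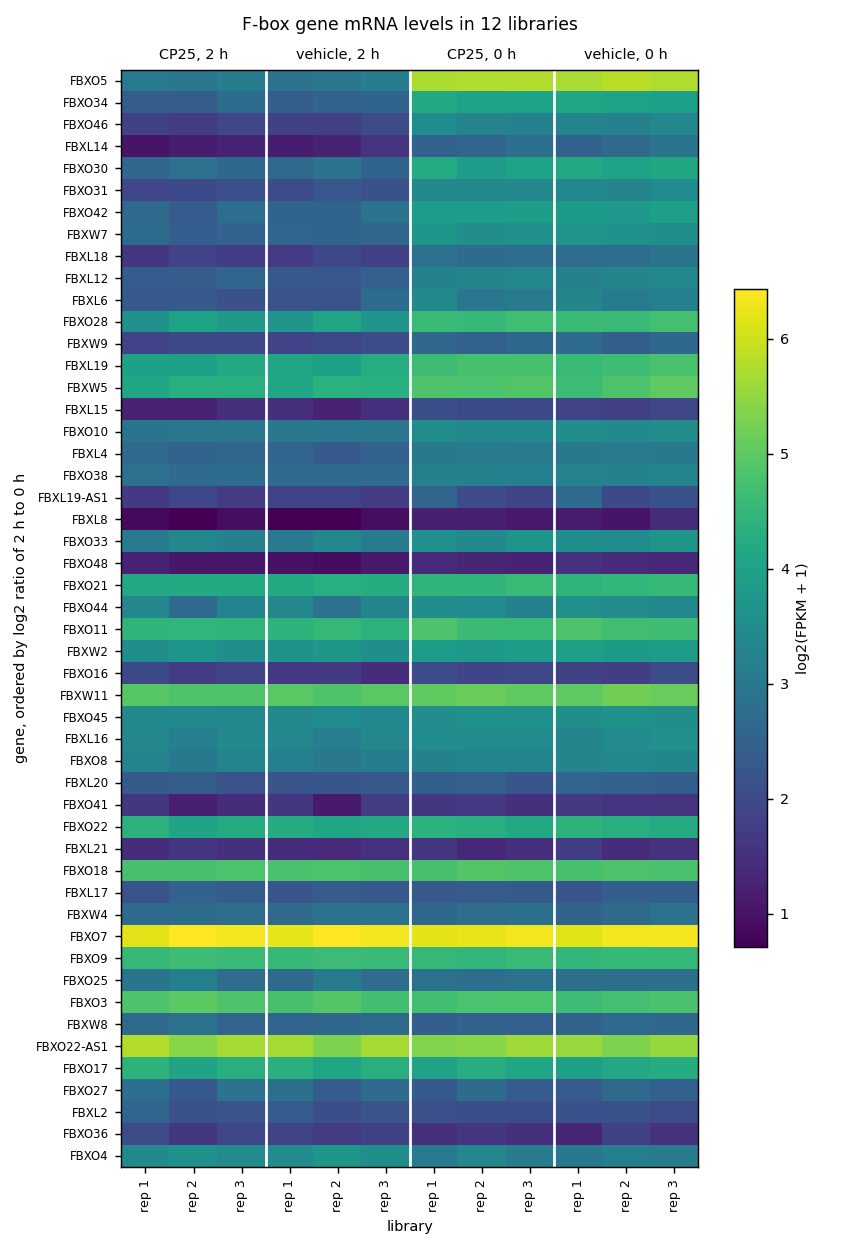
Heat map of log2(FPKM + 1) for 50 F-box genes (rows) in 12 libraries (columns, 3 per group: first 2 h with CP25 then vehicle, next 0 h with CP25 then vehicle). Rows run from the lowest to the highest ratio of 2 h to 0 h; the upper rows are darker in the 6 libraries at 2 h, and FBXO7 is bright in all 12.

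After 2 h of actinomycin D, most F-box mRNAs stood lower relative to the library, and they did so in CP25 and vehicle alike. The median log2 ratio of FPKM + 1, 2 h over 0 h, was -0.25 in CP25 and -0.29 in vehicle for the 51 members, beside -0.16 in CP25 and -0.18 in vehicle for all 12183 genes. The ratio was below -1 for 10 members in CP25, where 7.26% of all genes were below it, and for 9 members in vehicle, where 7.37% of all genes were. The 9 members of vehicle were also below -1 in CP25 (6.26% of all genes in both). The ratio was above 0 for 13 members in CP25 (34.2% of all genes) and for 12 in vehicle (32.0%). In 29 members every CP25 library at 2 h lay below every CP25 library at 0 h (44.0% of all genes), in 32 members the same held in vehicle (46.0%), and in 28 in both (39.5%). Only FBXO4 had every library at 2 h above every library at 0 h in both treatments (11.6% of all genes). The tables of the times were deposited separately, and levels across them are therefore described with no test. Since FPKM is relative to all fragments of a library, a ratio above 0 can arise from a smaller loss than that of the average transcript. Summed over the members other than the antisense RNAs, F-box mRNA came to 499 ± 8.23 FPKM in CP25 and 498 ± 12.5 FPKM in vehicle at 2 h, against 677 ± 5.85 FPKM in CP25 and 683 ± 19.0 FPKM in vehicle at 0 h (SD, n = 3 each). FBXO7 alone made up 15.9% of that sum at 2 h in both treatments, against 11.1% in CP25 and 11.2% in vehicle at 0 h. In bulk RNA, fewer cells with a transcript and less RNA per cell cannot be told apart.

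**Figure D2:**
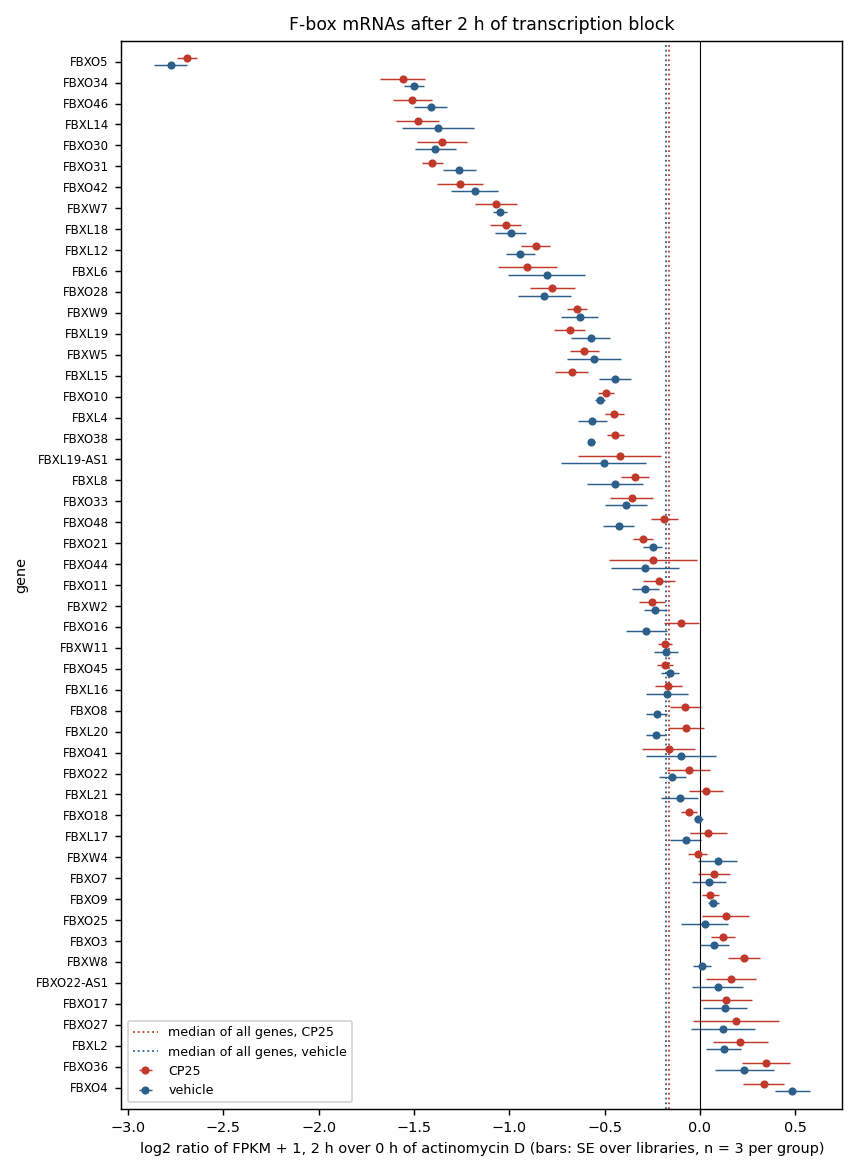
Log2 ratio of FPKM + 1 at 2 h over 0 h (x axis) for each of 50 F-box genes (y axis) in CP25 (red) and vehicle (blue); bars are SE over 3 libraries per group and dotted lines are the medians of all genes, -0.16 in CP25 and -0.18 in vehicle. FBXO5 lies far to the left at -2.69 in CP25 and -2.77 in vehicle, and FBXO4 is the rightmost in vehicle at 0.48.

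FBXO5 stood out with the lowest ratio of the family and the rank 32 from the bottom among all 12183 genes. Its protein, EMI1, holds the anaphase-promoting complex inactive through S and G2 phases and is itself destroyed in early mitosis after recognition by βTrCP proteins, one of them FBXW11. FBXO5 had 7.38, 6.81 and 7.79 FPKM in CP25 and 6.19, 6.92 and 7.64 FPKM in vehicle at 2 h, against 51.8, 52.9 and 53.7 FPKM in CP25 and 50.9, 56.1 and 52.6 FPKM in vehicle at 0 h. The groups of the times did not overlap, and 13.9% in CP25 and 13.004% in vehicle of the 0 h mean remained. The log2 ratio was -2.69 ± 0.05 in CP25 and -2.77 ± 0.09 in vehicle (SE, n = 3 per group). The 3′ UTR of the GENCODE 29 transcript is short, at 634 bases, and holds 2 matches to TGTANATA, the element bound by Pumilio proteins, which recruit deadenylases. Among 1246 3′ UTRs of like length, 17.4% hold at least 1 match and 2.17% hold at least 2. The sites lie at chr6:152970597-152970626 and chr6:152970549-152970578 on the minus strand of GRCh38 and are printed, with those of FBXO34 (chr14:55353075-55353104 and chr14:55353189-55353218, plus strand), beside the 3 sites of FBXO36 (chr2:230011167-230011196, chr2:230011848-230011877 and chr2:230012913-230012942, plus strand), a member that stood higher at 2 h. Each run is written 5′ to 3′ as DNA on the transcript's strand, with the match in capitals.
FBXO5 site A: ttttgtatacaTGTAAATAtttctgtattt
FBXO5 site B: tgtctcttgtaTGTACATAtaaaaataaat
FBXO34 site A: ggtgtttacagTGTATATAatggttgtgtt
FBXO34 site B: taaaatccagtTGTATATAatggacagcta
FBXO36 site A: gaggtttctatTGTATATAaacaaacaata
FBXO36 site B: ctaagtaaaaaTGTAAATAtggtttgcatg
FBXO36 site C: tgaaaacactaTGTATATAcctactcacat
The same letters thus occur in members at both ends of the range. FBXL4, FBXW11, FBXO45 and FBXO3, whose sites are not printed, also hold 2 or more matches. A match is a description of the sequence, not evidence of binding, and its bearing on the ratio was not tested.

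The next ratios belonged to 4 genes with few exons. FBXO34 had 4.29, 4.22 and 5.59 FPKM in CP25 and 4.41, 4.79 and 4.87 FPKM in vehicle at 2 h, against 16.8, 15.4 and 15.2 FPKM in CP25 and 15.9, 14.9 and 14.4 FPKM in vehicle at 0 h. FBXO46, its paralogue, had 2.55, 2.26 and 2.78 FPKM in CP25 and 2.59, 2.44 and 3.05 FPKM in vehicle at 2 h, against 10.2, 8.67 and 8.26 FPKM in CP25 and 8.77, 8.27 and 9.44 FPKM in vehicle at 0 h. In both genes all 6 libraries at 2 h were far below all 6 at 0 h, and 29.7% in CP25 and 31.1% in vehicle of FBXO34 remained and 27.99% in CP25 and 30.5% in vehicle of FBXO46. FBXL14, which targets the transcription factor SNAI1, had 1.02, 1.21 and 1.43 FPKM in CP25 and 1.198, 1.397 and 1.99 FPKM in vehicle at 2 h, against 4.71, 4.99 and 5.901 FPKM in CP25 and 4.58, 5.42 and 6.67 FPKM in vehicle at 0 h. With 1.02 to 1.99 FPKM at 2 h, its log2 ratio of -1.48 ± 0.11 in CP25 and -1.37 ± 0.19 in vehicle depends on the pseudocount, and the percentage left was 23.5% in CP25 and 27.5% in vehicle. FBXO30, whose mouse counterpart takes part in muscle wasting, had 5.07, 6.21 and 5.12 FPKM in CP25 and 5.397, 6.34 and 4.82 FPKM in vehicle at 2 h, against 17.6, 13.6 and 15.3 FPKM in CP25 and 16.9, 15.02 and 16.3 FPKM in vehicle at 0 h. It showed no overlap between times and a percentage left of 35.2% in CP25 and 34.4% in vehicle. In GENCODE 29 the principal transcripts of FBXO34, FBXO46 and FBXL14 have 2 exons each and that of FBXO30 has 3.

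FBXO31, FBXO42 and FBXW7 followed, all with 9 or more exons. FBXO31, which directs cyclin D1 to degradation, had 2.82, 2.94 and 3.31 FPKM in CP25 and 3.02, 3.79 and 3.39 FPKM in vehicle at 2 h, against 9.53, 9.49 and 9.95 FPKM in CP25 and 9.47, 8.98 and 10.2 FPKM in vehicle at 0 h. FBXO42, a p53-binding adaptor, had 5.41, 4.18 and 5.82 FPKM in CP25 and 4.89, 4.86 and 6.45 FPKM in vehicle at 2 h, against 13.5, 13.4 and 14.1 FPKM in CP25 and 13.2, 12.9 and 14.5 FPKM in vehicle at 0 h. FBXW7, the tumour suppressor that recognises phosphorylated cyclin E, MYC, JUN and Notch, had 5.64, 4.32 and 4.65 FPKM in CP25 and 4.95, 4.85 and 5.03 FPKM in vehicle at 2 h, against 12.2, 10.5 and 11.2 FPKM in CP25 and 11.7, 11.4 and 10.7 FPKM in vehicle at 0 h. In these 3 genes every library at 2 h was below every library at 0 h, in either treatment. FBXO31 was left at 31.3% in CP25 and 35.6% in vehicle, FBXO42 at 37.5% in CP25 and 39.95% in vehicle and FBXW7 at 43.04% in CP25 and 43.8% in vehicle. The log2 ratio of FBXW7 was -1.07 ± 0.11 in CP25 and -1.05 ± 0.04 in vehicle (SE, n = 3 per group). Its 3′ UTR of 1618 bases holds 2 matches to TATTTAT, an AU-rich word of unstable mRNAs, at chr4:152322082-152322110 and chr4:152321413-152321441 on the minus strand of GRCh38, shown because AU-rich elements are the best known mark of rapid mRNA turnover.
FBXW7 site A: gtggccaaactTATTTATgctgctaaatg
FBXW7 site B: tttgtttgtttTATTTATagtctgattta
At least 1 such word is in 36.7% of 1617 3′ UTRs of like length, and the share with 2 or more is not given. Of the members with lower ratios, FBXO42 holds 3 matches and FBXO46 holds 1. FBXO5, FBXO34, FBXL14, FBXO30 and FBXO31 hold none. Whether the word bears on the ratio of FBXW7 was not tested.

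FBXL18, FBXL12 and FBXL6, all leucine-rich repeat members, were also among the lowest 12 ratios. FBXL18 had 2.07, 2.69 and 2.34 FPKM in CP25 and 2.29, 2.84 and 2.48 FPKM in vehicle at 2 h, against 6.12, 5.64 and 5.695 FPKM in CP25 and 5.75, 5.82 and 6.53 FPKM in vehicle at 0 h. FBXL12, reported to target the CDK inhibitor p57, had 4.15, 4.24 and 4.92 FPKM in CP25 and 4.03, 3.803 and 4.497 FPKM in vehicle at 2 h, against 8.35, 8.92 and 9.38 FPKM in CP25 and 8.22, 8.86 and 9.36 FPKM in vehicle at 0 h. FBXL6 had 4.02, 4.04 and 3.38 FPKM in CP25 and 3.4996, 3.52 and 5.65 FPKM in vehicle at 2 h, against 9.74, 6.74 and 7.55 FPKM in CP25 and 9.002, 7.34 and 8.003 FPKM in vehicle at 0 h. None of these overlapped between times. FBXL18 was left at 40.6% in CP25 and 42.05% in vehicle, FBXL12 at 49.9% in CP25 and 46.6% in vehicle and FBXL6 at 47.6% in CP25 and 52.1% in vehicle.

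**Figure D3:**
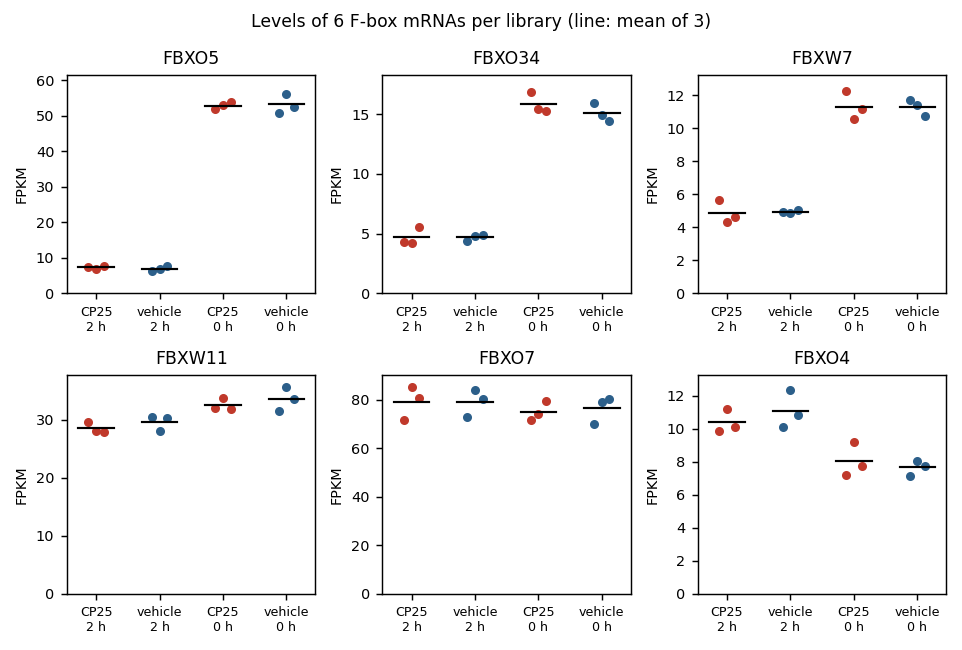
FPKM of FBXO5, FBXO34, FBXW7, FBXW11, FBXO7 and FBXO4 in each library (points) with the mean of 3 (line), with CP25 left of vehicle, first at 2 h and then at 0 h; every axis starts at 0. The first 4 genes are lower at 2 h without overlap, FBXO7 overlaps between 69.9 and 85.2 FPKM, and FBXO4 is higher at 2 h.

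Between the extremes lay members with log2 ratios, averaged over the treatments, of -0.79 (FBXO28) to 0.08 (FBXO25). Of those that act on chromatin and DNA, FBXO28, which marks topoisomerase IIα, was left at 56.7% in CP25 and 55.03% in vehicle, and FBXL19, which binds unmethylated CpG DNA through a CXXC domain, at 60.8% in CP25 and 65.9% in vehicle. The DNA helicase FBXO18, now called FBH1, was left at 95.9% in CP25 and 99.4% in vehicle, and FBXO22, which targets the histone demethylase KDM4A, at 95.8% in CP25 and 89.9% in vehicle. FBXO11, which targets BCL6 and CDT2, had 20.7, 21.3 and 20.8 FPKM in CP25 and 20.1, 21.98 and 19.7 FPKM in vehicle at 2 h, against 27.3, 23.5 and 22.5 FPKM in CP25 and 27.4, 24.5 and 24.1 FPKM in vehicle at 0 h. Its libraries did not overlap between times, yet 85.7% in CP25 and 81.3% in vehicle remained, near the median of all genes.

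In signalling, FBXW11 had 29.6, 28.03 and 27.9 FPKM in CP25 and 30.4, 27.96 and 30.3 FPKM in vehicle at 2 h, against 31.9, 33.8 and 31.8 FPKM in CP25 and 31.4, 35.5 and 33.6 FPKM in vehicle at 0 h. It was lower at 2 h in every library, with a log2 ratio of -0.18 ± 0.04 in CP25 and -0.18 ± 0.06 in vehicle (SE, n = 3 per group), at the all-gene median. FBXL15, which targets the ubiquitin ligase SMURF1 of the BMP pathway, was left at 50.6% in CP25 and 63.2% in vehicle. Of the quality-control and mitochondrial members, FBXO10, which targets BCL2, was left at 68.2% in CP25 and 66.6% in vehicle, FBXL4, a restraint on mitophagy, at 69.5% in CP25 and 63.2% in vehicle, and FBXL17, which removes misassembled BTB dimers, at 104% in CP25 and 93.8% in vehicle. FBXO7 had 71.7, 85.2 and 80.5 FPKM in CP25 and 73.02, 83.996 and 80.4 FPKM in vehicle at 2 h, against 71.7, 74.2 and 79.5 FPKM in CP25 and 69.9, 79.3 and 80.5 FPKM in vehicle at 0 h. All 4 groups overlapped, and its log2 ratio was 0.07 ± 0.08 in CP25 and 0.05 ± 0.09 in vehicle, so the most abundant member did not separate by time. FBXO38, reported to target PD-1 in T cells, was left at 70.3% in CP25 and 63.6% in vehicle, FBXO33, which targets YB-1, at 76.1% in CP25 and 74.3% in vehicle, and FBXO45, a partner of the ligase MYCBP2, at 87.02% in CP25 and 88.6% in vehicle. FBXW5, which targets the centriole protein SAS-6, was left at 64.5% in CP25 and 66.8% in vehicle, and FBXO9, an adaptor for the TEL2 and TTI1 proteins, at 104% in CP25 and 105% in vehicle. Among the remaining members, FBXW9 had the lowest mean log2 ratio and was left at 56.7% in CP25 and 57.5% in vehicle. FBXO25 had the highest, with 111% in CP25 and 102% in vehicle. FBXW4 was left at 99.002% in CP25 and 108% in vehicle, and FBXL8 was under 1 FPKM in all libraries at 2 h.

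The 8 highest ratios were those of FBXO3, FBXW8, FBXO22-AS1, FBXO17, FBXO27, FBXL2, FBXO36 and FBXO4. FBXO4, which has been tied to the turnover of cyclin D1 and of the telomere protein TRF1, had 9.89, 11.2 and 10.1 FPKM in CP25 and 10.1, 12.4 and 10.8 FPKM in vehicle at 2 h, against 7.19, 9.19 and 7.77 FPKM in CP25 and 7.15, 8.08 and 7.75 FPKM in vehicle at 0 h. Every library at 2 h was above every library at 0 h, and the level stood at 129% in CP25 and 145% in vehicle of the 0 h mean. FBXO36 had 3.09, 2.11 and 2.85 FPKM in CP25 and 2.69, 2.28 and 2.58 FPKM in vehicle at 2 h, against 1.81, 2.04 and 1.84 FPKM in CP25 and 1.495, 2.55 and 1.93 FPKM in vehicle at 0 h. It was above without overlap in CP25 and overlapped in vehicle. FBXL2, a membrane-anchored adaptor that is itself a target of FBXO3, had 4.98, 3.34 and 3.53 FPKM in CP25 and 4.15, 3.25 and 3.501 FPKM in vehicle at 2 h, against 3.29, 3.26 and 3.25 FPKM in CP25 and 3.3996, 3.33 and 3.02 FPKM in vehicle at 0 h. FBXO3 had 27.3, 30.95 and 27.7 FPKM in CP25 and 26.3, 28.9 and 25.1 FPKM in vehicle at 2 h, against 25.05, 26.9 and 26.8 FPKM in CP25 and 23.8, 25.5 and 26.7 FPKM in vehicle at 0 h. For both genes the CP25 libraries separated narrowly by time and the vehicle libraries overlapped.

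FBXW8, which works with the scaffold CUL7 in place of CUL1, had 5.42, 6.18 and 4.98 FPKM in CP25 and 4.99, 5.16 and 5.46 FPKM in vehicle at 2 h, against 4.33, 4.72 and 4.62 FPKM in CP25 and 4.85, 5.37 and 5.24 FPKM in vehicle at 0 h. Only its CP25 libraries separated by time; the difference between treatments is tested further on. FBXO17 and FBXO27 belong, with FBXO44, to the sugar-binding F-box proteins that recognise N-glycans. FBXO17 had 20.2, 15.5 and 18.5 FPKM in CP25 and 19.2, 16.1 and 19.02 FPKM in vehicle at 2 h, against 15.03, 18.3 and 15.7 FPKM in CP25 and 14.5, 16.8 and 18.03 FPKM in vehicle at 0 h. FBXO27 had 5.94, 3.88 and 6.398 FPKM in CP25 and 6.04, 4.15 and 5.49 FPKM in vehicle at 2 h, against 4.01, 5.67 and 4.17 FPKM in CP25 and 4.13, 5.46 and 4.58 FPKM in vehicle at 0 h. Both overlapped between times, and at 2 h the library numbered 2 was the lowest in either treatment. FBXO44 was left at 82.6% in CP25 and 80.05% in vehicle. It too was lowest in the library numbered 2, with 9.46, 5.57 and 8.81 FPKM in CP25 and 9.22, 6.12 and 8.83 FPKM in vehicle at 2 h. The antisense RNA FBXO22-AS1 had 53.3, 41.6 and 50.1 FPKM in CP25 and 49.7, 38.98 and 49.6 FPKM in vehicle at 2 h, against 39.6, 41.7 and 47.9 FPKM in CP25 and 45.7, 38.97 and 44.8 FPKM in vehicle at 0 h, overlapping between times. Its counterpart FBXL19-AS1 was left at 67.7% in CP25 and 63.1% in vehicle. These percentages lean on the library numbered 1 at 0 h. There FBXL19-AS1 had 4.96, 3.06 and 2.77 FPKM in CP25 and 5.55, 2.97 and 3.42 FPKM in vehicle. Between times its CP25 libraries overlapped and its vehicle libraries did not.

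The ratio went with the density of exon junctions in the transcript. Over the 48 members with a protein-coding GENCODE 29 transcript, the mean log2 ratio followed the number of exon junctions per kilobase of coding sequence, with a Spearman correlation of 0.621 across genes. Over 10855 genes with such a transcript it was 0.51, and the relation was thus also present outside the family. Of the features compared, junction density had the strongest correlation in both sets. The number of exons alone gave 0.369 in members and 0.145 in all genes. GC content of the transcript gave -0.0777 in members and -0.323 in all genes, and the 0 h level gave -0.204 and 0.352. The 7 members with fewer than 2 junctions per kilobase (0.468 to 1.85) had a median log2 ratio of -1.37, beside -0.76 for 1088 genes of that density. The 9 members with 7 or more had a median of -0.15, beside -0.0019 for 4659 genes. Members with 5 exons or fewer were below -1 in 7 of 15 cases (16.5% of all genes with so few exons), those with 6 to 9 exons in 1 of 15 (4.56%) and those with 10 or more in 2 of 18 (3.25%). These exon classes were chosen after the values were seen. The lowest 12 had a median of 2.51 junctions per kilobase (0.468 to 5.31) and the 8 highest protein-coding members 5.92 (5.155 to 11.01). FBXO5 lay far below other genes of its density of 2.98, while FBXO45, with 2.32, lay above them. Genes are not independent replicates, the annotated transcript may not be the one HEK293T cells express, and junction density also goes with coding length, whose own correlation was -0.33 in members and -0.25 in all genes; their separate parts were not tested.

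**Figure D4:**
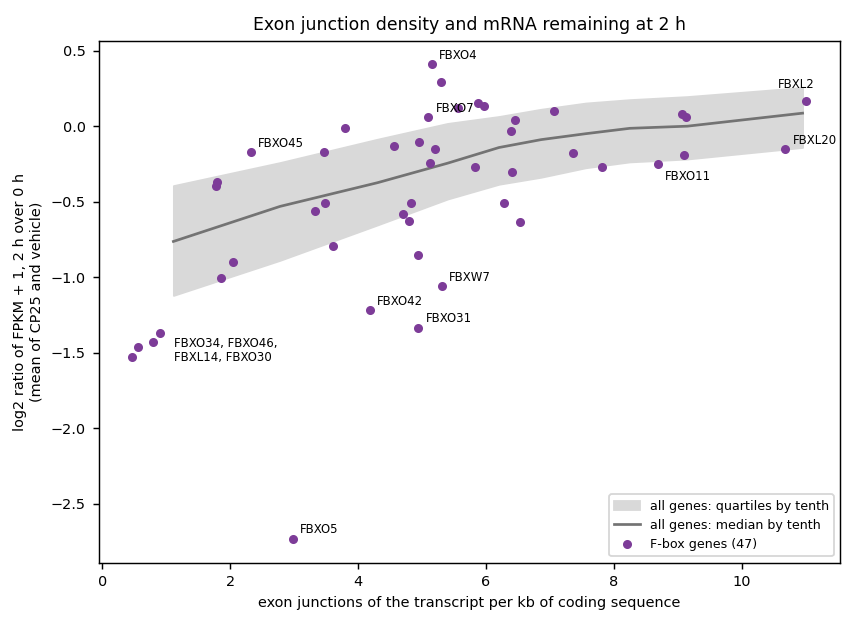
Exon junctions per kilobase of coding sequence (x axis) against the log2 ratio of FPKM + 1, 2 h over 0 h, mean of CP25 and vehicle (y axis), for 47 protein-coding F-box genes (purple); the grey line and band are the median and quartiles of 10855 genes binned by junction density. FBXO34, FBXO46, FBXL14 and FBXO30 sit at the lower left, and FBXO5 lies far below the band.

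The 3′ UTR words did not order the family. TGTANATA was present in 17 of the 48 members (35.4%), beside 28.8% of all genes, and TATTTAT in 15 (31.3%), beside 33.8%; only the transcript's strand was searched, and overlapping matches were counted. Members with TGTANATA had a median log2 ratio of -0.18 and those without it -0.31, the reverse of the order in all genes (-0.23 with and -0.15 without). For TATTTAT the medians were -0.17 with and -0.39 without in members, beside -0.22 with and -0.15 without in all genes. Members with TATTTAT had longer 3′ UTRs, with a median of 4292 bases, against 962 bases for those without it. FBXL20, with 8 copies of TATTTAT in 8816 bases, was left at 93.9% in CP25 and 82.1% in vehicle, and FBXO45, with 5 copies of it and 3 of TGTANATA, at 87.02% in CP25 and 88.6% in vehicle. FBXO31 held neither word. Per kilobase of 3′ UTR, the Spearman correlation with the ratio across members was 0.056 for TATTTAT and -0.0057 for TGTANATA.

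The constant subunits that F-box proteins plug into were followed as lists. Of the SCF core genes SKP1, CUL1, RBX1 and RNF7, none had a log2 ratio below -1, where 7.26% of all genes in CP25 and 7.37% in vehicle did. SKP1, the linker bound by every F-box domain, was left at 134% in CP25 and 137% in vehicle, and CUL1 at 107% in CP25 and 103% in vehicle. Among 14 genes of neddylation and adaptor exchange, which switch cullins on and swap their adaptors, 2 were below -1 in CP25 and 1 in vehicle. DCUN1D3, a co-E3 for NEDD8, was the lowest, with 0.715 ± 0.0763 FPKM in CP25 and 0.645 ± 0.106 FPKM in vehicle at 2 h, against 2.65 ± 0.205 FPKM in CP25 and 2.84 ± 0.222 FPKM in vehicle at 0 h (SD, n = 3 each). NAE1, a subunit of the NEDD8-activating enzyme, was the highest at 143% in CP25 and 144% in vehicle. None of the 9 COP9 signalosome subunits, which remove NEDD8, and none of 7 E2 and ARIH1 partners was below -1. At the all-gene share, lists this short would hold few such genes or none.

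F-box genes with other symbols also varied widely. CCNF (cyclin F) was left at 41.6% in CP25 and 42.6% in vehicle and the histone demethylase KDM2A at 41.5% in CP25 and 42.1% in vehicle, while SKP2, which targets the CDK inhibitor p27, stood at 109% in CP25 and 106% in vehicle. Of adaptors for other cullins, 4 of 24 measured KLHL genes (CUL3) were below -1 in either treatment (7.26% of all genes in CP25 and 7.37% in vehicle). By log2 ratio KLHL21 was lowest, left at 24.7% in CP25 and 27.3% in vehicle. KLHL5 was highest at 132% in CP25 and 130.2% in vehicle. The percentage left was lowest for KLHL25, at 10.6% in CP25 and 15.1% in vehicle. KLHL25 stood at only 0.265 FPKM in CP25 and 0.371 FPKM in vehicle at 2 h, under the threshold of 1 FPKM. None of 12 measured DCAF genes (CUL4) was below -1, with DCAF15 lowest at 63.3% in CP25 and 64.6% in vehicle and DCAF13 highest at 126% in CP25 and 133% in vehicle.

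At 0 h, no F-box mRNA passed the test of CP25 against vehicle. With limma on log2(FPKM + 1) and Benjamini-Hochberg adjustment, 0 of 51 members passed adjusted p 0.05, where 0.0% of 12365 genes did. At an unadjusted p under 0.05 there were 0 members and 88 genes (0.712%). That share is well below the threshold itself, so 0 members in this unpaired fit is weak evidence of no change. The same holds at 2 h and for the difference of effects below, and a fit with a replicate block is given further on. The log2(FPKM + 1) scale understates folds of members near 1 to 3 FPKM. On it, the 95% interval excluded a change of 1.5-fold in 50 of the 51 (11821 of the 12365 genes), the exception being FBXL19-AS1. A 2-fold change was excluded in all 51 (12175 of the genes). With a pseudocount of 0.1 the interval excluded 1.5-fold in 49 (11121 of the genes), FBXL8 being the other exception. Log2 differences, CP25 minus vehicle, ran from -0.15 (FBXW8) to 0.16 (FBXL15). FBXL15 had 3.22, 2.99 and 2.91 FPKM in CP25, against 2.61, 2.45 and 2.81 FPKM in vehicle, and was the member whose CP25 libraries all lay above the vehicle ones (1.23% of all genes). FBXW8 had 4.33, 4.72 and 4.62 FPKM in CP25, against 4.85, 5.37 and 5.24 FPKM in vehicle. Together with FBXO8 and FBXO38 it was below without overlap (3 members, where 2.85% of all genes were). The limma differences were 0.16, with an unadjusted p of 0.0918 for FBXL15, and -0.15, with an unadjusted p of 0.0706 for FBXW8. The next smallest p-values belonged to FBXO34 at 0.06 and FBXO16 at 0.08 above 0, and to FBXO8 at -0.07 and FBXL20 at -0.10 below it. All adjusted p-values of these members were 0.99996.

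At 2 h, too, no member passed. None of 50 members passed in limma's test (FBXL8 was below the filter at this time), where 1 of 11745 genes did (0.00851%), the small nucleolar RNA SNORD76. At an unadjusted p under 0.05 there were 0 members and 87 genes (0.741%). A change of 1.5-fold in FPKM + 1 was outside the interval in 50 of 50 members (11309 of the 11745 genes). With a pseudocount of 0.1 it was outside in 46 (10502 of the genes), the exceptions being FBXL14, FBXO16, FBXO41 and FBXO48. With 1 library left out it was outside in 45 to 49 (10831 to 11129 of the genes). FBXO16 had the smallest p of the members, with 2.98, 2.24 and 2.63 FPKM in CP25, against 2.14, 2.202 and 1.72 FPKM in vehicle. Its CP25 libraries all lay above its vehicle libraries (2.47% of all genes), and no member was below without overlap (1.75%). The log2 difference of FBXO16 was 0.26, with an unadjusted p of 0.0538. FBXL4 at 0.12 and FBXO48 at 0.13 came next above 0, and FBXO31 at -0.13, FBXL14 at -0.18 and FBXO4 at -0.09 below it. FBXO5, the member with the steepest ratio, differed by 0.08 (95% interval -0.14 to 0.29) and FBXW7 by -0.02 (95% interval -0.25 to 0.20). FBXO11 differed by 0.03, FBXW11 by -0.05 and FBXO7 by -0.0012. In the authors' deposited table, no member had a p-value that passed after adjustment, the smallest being 0.166 for FBXW8 at 0 h and 0.0799 for FBXO16 at 2 h.

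The comparison nearest to the study's question is whether the CP25 effect changed during the block. In limma's interaction contrast, 0 of 51 members passed, where 0.0% of 12183 genes did, and 0 members and 153 genes (1.26%) had an unadjusted p under 0.05. On the log2(FPKM + 1) scale the interval excluded a 1.5-fold change of the effect in 49 of 51 members (10561 of the 12183 genes). The exceptions were FBXL19-AS1 and FBXO27. With a pseudocount of 0.1 it did so in only 39 (9089 of the genes), and with 1 library left out in 44 to 47 (9781 to 10543 of the genes). FBXW8 had the smallest p, with a difference of 0.22 (95% interval -0.02 to 0.46) and an unadjusted p of 0.0718. FBXO48, at 0.24, had 1.39, 1.096 and 1.104 FPKM in CP25 and 0.982, 0.869 and 1.16 FPKM in vehicle at 2 h, against 1.61, 1.49 and 1.39 FPKM in CP25 and 1.89, 1.66 and 1.53 FPKM in vehicle at 0 h. FBXO38 followed at 0.12, and on the other side were FBXL15 at -0.23, FBXO31 at -0.14 and FBXO4 at -0.14. For FBXO5 the effect changed by 0.09 (95% interval -0.15 to 0.32), for FBXW7 by -0.03 (95% interval -0.29 to 0.24) and for FBXO11 by 0.08 (95% interval -0.17 to 0.32). FBXO7 at 0.02 and FBXW11 at -0.0092 had intervals that also span 0. Across the members, the ratios of the treatments were alike, with a Pearson correlation of 0.987 over 51 genes as a description; the SD of the difference was 0.0991 and the widest gap 0.24, in FBXO48.

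Libraries with the same replicate number held the same extreme rank in both treatments more often for some numbers than for others, and this shows in single members. At 2 h the library numbered 2 was the lowest of its group in both CP25 and vehicle in 18 of the 51 members (26.5% of all genes), among them FBXO44, FBXO27, FBXO17, FBXO41 and FBXO22. It was the highest in both in 15 members (31.3% of all genes), among them FBXO28, FBXO33, FBXO25 and FBXO7. At 0 h the library numbered 1 was the lowest in both in 16 members (32.6% of all genes) and the highest in both in 13 (24.9%). These numbers had the largest shares. The library numbered 3 was the lowest in both in 2 members at 2 h (12.5% of all genes) and in 8 at 0 h (12.1%). FBXO28 had 11.6, 15.2 and 12.6 FPKM in CP25 and 11.9, 15.96 and 11.9 FPKM in vehicle at 2 h, a wider spread within each treatment than between them. With the replicate number as a block, still 0 members passed adjusted p 0.05 in any of the 3 comparisons. An unadjusted limma p under 0.05 was seen at 0 h in 1 of 51 members and 857 of 12365 genes. At 2 h it was seen in 3 of 50 members and 814 of 11745 genes. For the difference it was seen in 2 of 51 members and 1284 of 12183 genes. In each comparison the share of members was no higher than that of all genes.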

How the data were processed

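HEK293T poly(A) RNA libraries were compared, 3 per group. Per the submitters' processing notes, the authors used CASAVA 1.8.2, Trimmomatic 0.36 and Bowtie2 2.2.3 with hg19, and deposited FPKM values in 1 table per time. How FPKM was computed, and any strand setting, is not given in the sources used here. Also deposited was the authors' unadjusted p-value per gene for CP25 against vehicle at each time.

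From these FPKM, log2(FPKM + 1) was fitted with limma 3.58.1 (R 4.3.3, trend) over genes averaging at least 1 FPKM, with Benjamini-Hochberg adjustment over all genes at 0.05. The fit was tested on simulated data with independent noise per gene and library. Of 100 genes changed by 1 log2 unit, 84 to 90 were recovered across the 3 comparisons, with 6 to 10 false calls. The simulation held no spread shared between libraries of the same number, so it does not show how the fit handles that. Ratios of 2 h to 0 h use group means. Members and lists were chosen with earlier results of these data known. By value in each library, the text gives the 12 lowest and 8 highest ratios and 5 well-studied members, apart from 1 member that counts in the totals but is not reported here; in each comparison with CP25 it gives the 3 smallest p-values per direction. Role groupings were made after values were seen. Transcript features come from GENCODE 29 (GRCh38), matched by symbol for 50 of 51 members. At 2 h, deviations of CP25 and vehicle libraries of the same number correlated across genes at 0.347, 0.44 and 0.147. Libraries of unlike number correlated there at -0.439 to 0.117. At 0 h the values were 0.258, -0.0102 and 0.124 for the same number and -0.22 to 0.124 for unlike numbers. Pairing by number comes from the data and is clear for some libraries only.

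Alternatives were another pseudocount, no filter, other scalings, a replicate block, no trend, and each library left out in turn.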

Additional observations from a re-analysis of the deposited data

How the results depend on the processing

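No F-box gene passed adjusted p 0.05 in any comparison of CP25 with vehicle under any alternative run. Across all genes, leaving out 1 library at a time gave 0 to 4 called genes at 0 h, 1 to 6 at 2 h and 0 to 3 for the difference of effects; the highest counts were seen when the 0 h CP25 library 1, the 2 h CP25 library 2 and, for the difference, the 0 h CP25 library 2 was dropped. The authors' p-values, adjusted here, called 0 genes at 2 h. With the replicate number as a block, the genes called stayed at 0 at 0 h, 1 at 2 h and 0 for the difference, while genes at an unadjusted p under 0.05 numbered 857, 814 and 1284, against 88, 87 and 153 without the block.

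The median log2 ratio of the F-box genes, 2 h over 0 h, moved in CP25 to -0.17 when low values were not filtered and to -0.28 for members at 5 FPKM or more, and ran from -0.28 to -0.20 with 1 library left out. In vehicle it was -0.32 with a pseudocount of 0.1, -0.28 with libraries centred on their median and -0.23 with no filter, and ran from -0.33 to -0.26 with 1 library left out. Without the antisense RNAs and the FBXL21 pseudogene, a choice made after seeing the data, it was -0.25 in CP25 and -0.29 in vehicle. A pseudocount of 0.1 moved 12 ratios of named genes by more than their spread, all away from 0, and no other setting moved any.

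Of the named genes, 5 had CP25 differences near 0 whose sign depended on the libraries used. At 0 h, log2 differences with 1 library left out ran from -0.0507 to 0.0481 for FBXW7, -0.0849 to 0.000928 for FBXW11, -0.0407 to 0.0291 for FBXO5, -0.0879 to 0.0129 for FBXO7 and -0.131 to 0.00475 for FBXO11, and median centring gave 0.00468 for FBXO5. At 2 h they ran from -0.116 to 0.0446 for FBXW7, -0.0574 to 0.0677 for FBXO7 and -0.00336 to 0.0711 for FBXO11. For the difference of effects they ran from -0.118 to 0.0424 for FBXW7, -0.0512 to 0.0346 for FBXW11 and -0.0330 to 0.0920 for FBXO7. The cause was not tested. Depth limits the members near 1 FPKM, such as FBXL8, FBXO48 and FBXL14 at 2 h, where 1 FPKM on 2 kb stands for as few as 44.5 fragments.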
